A study of Ganoderma lucidum with 6 samples.

Results

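The genes described here encode 5 enzymes of Ganoderma lucidum that lead to, make or directly use the activated sugars from which its polysaccharides are built. They were taken by gene identifier, and the identifiers were picked by their enzyme names: UDP-glucose pyrophosphorylase (GL25739-G), glucose-6-phosphate isomerase (GL22245-G), phosphoglucomutase (GL24280-G), UDP-N-acetylglucosamine pyrophosphorylase (GL30088-G) and glycogen synthase (GL24971-G). They are 5 of 16113 genes in the deposited table, all 5 passed the filter on low counts, and each is the sole gene of the table with its enzyme description. RNA sequencing was done on mycelia, the vegetative threads of this wood-decaying bracket fungus. All 6 libraries were of the wild type and were taken at day 3, 3 from cultures on ammonium sulfate, (NH4)2SO4, and 3 from cultures on sodium nitrate, NaNO3. The salts differ in sulfate and sodium as well as in the form of nitrogen, so these cannot be told apart. AreA, a nitrogen transcription factor whose silencing the study's title names, was not silenced in any library analysed here, as far as the labels say.

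Sugar entering a fungal cell is trapped as glucose 6-phosphate, from which the routes described here part. Phosphoglucomutase turns glucose 6-phosphate into glucose 1-phosphate, and UDP-glucose pyrophosphorylase joins that to a nucleotide to give UDP-glucose, the donor for cell wall glucans and for glycogen. Glucose-6-phosphate isomerase instead makes fructose 6-phosphate, which feeds glycolysis and also the amino sugar route that ends with UDP-N-acetylglucosamine pyrophosphorylase and UDP-N-acetylglucosamine, the donor for chitin. Glycogen synthase spends UDP-glucose on glycogen, the storage glucan inside the cell. Ganoderma is known for the beta-glucans that it lays down in its wall and releases into the medium. Some of these enzymes have been studied as suppliers of beta-glucan precursors.

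The libraries held 19979528 to 27604895 counts in genes. The enzymes had 511 to 44359 counts in a library, so the counting error of a single value was at most 4.42% (1 divided by the square root of the lowest count, 511, for glycogen synthase). The spread between libraries was larger than that for every enzyme. Levels are FPKM, fragment counts scaled by gene length and by library size, as deposited. Fold changes compare nitrate with ammonium on the log2 scale and come from edgeR's quasi-likelihood test on the counts. The p-values are adjusted over all 11993 tested genes by the Benjamini-Hochberg method. Standard errors were derived here from each log2 fold change and the test's F statistic, and the intervals were built from them. A gene is called at an adjusted p under 0.05. The labels do not say whether replicates were separate cultures. The p-values therefore rest on the spread among these libraries alone, which may be technical. In RNA from whole mycelia, a change in the share of cells that use a gene and a change in its RNA per cell cannot be told apart.

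On nitrate, the transcripts of both pyrophosphorylases, the enzymes that release finished UDP-sugars, were higher than on ammonium, and those of glucose-6-phosphate isomerase and glycogen synthase were lower. The called genes were 2 higher and 2 lower, and phosphoglucomutase did not pass. Of all tested genes, 15.6% were called, 7.5% higher and 8.13% lower. The enzymes were proposed with results of these data in view, so their count of 4 in 5 is a description and is no evidence that this group of genes responds more than others. The FPKM values of the groups did not overlap for 4 of the 5 enzymes, against 37.0% of all tested genes. A change of at least 2-fold was called for 3 of the 5 (9.14% of tested genes), and all 5 had an unadjusted p under 0.05 (31.9%).

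The count depended on single libraries. The fits without ammonium replicates 1, 2 and 3 called 3, 2 and 2 of the 5, where 16.1%, 6.55% and 5.41% of all tested genes were called. Those without nitrate replicates 1, 2 and 3 called 4, 4 and 0, where 13.8%, 9.36% and 5.79% were called. By limma on log2(FPKM + 1) or log2(FPKM + 0.1) the same 4 enzymes were called, beside 14.2% and 13.8% of the genes.

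**Figure D1:**
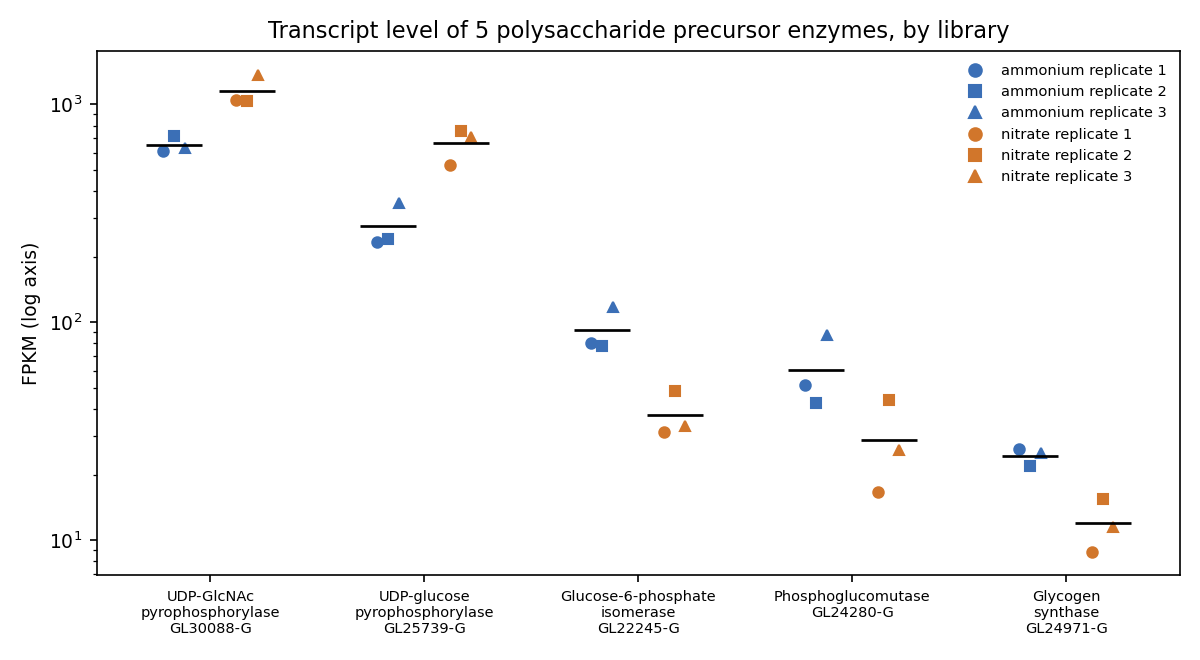
FPKM (log axis) of the 5 enzymes in each library, with ammonium in blue, nitrate in orange, a marker shape for each replicate number and a bar at the group mean. The pyrophosphorylases on the left stand higher in all nitrate libraries, the isomerase and glycogen synthase stand lower, and phosphoglucomutase overlaps between 42.7 and 43.9 FPKM.

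UDP-glucose pyrophosphorylase, GL25739-G, lies on the plus strand of scaffold 7 at 447883 to 450212 in the coordinates of the table. Its level was 233, 241 and 354 FPKM in ammonium replicates 1 to 3 and 525, 759 and 706 FPKM in nitrate replicates 1 to 3. The lowest nitrate library stood above the highest ammonium library. The level rose from 276 ± 67.8 to 663 ± 123 FPKM (SD, n = 3 and 3), 2.37-fold in the model (log2 fold change 1.24 ± 0.24, SE, 95% interval 0.70 to 1.79, adjusted p = 0.0133, edgeR). Its place among all tested genes by mean level moved from the percentile 95.4 in ammonium to 98.2 in nitrate. Dropping ammonium replicate 2 ended the call (log2 fold change 1.18, adjusted p = 0.0635), as did dropping nitrate replicate 3 (1.22, adjusted p = 0.0521).

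UDP-N-acetylglucosamine pyrophosphorylase, GL30088-G, is on the minus strand of scaffold 1 at 3804841 to 3806411 and was the most abundant of the 5 in every library. It stood at 614, 719 and 629 FPKM in the ammonium libraries and at 1047, 1038 and 1371 FPKM in the nitrate libraries. Every nitrate library was above every ammonium library, and nitrate replicate 3 was the highest of all. The gene rose 1.74-fold (log2 fold change 0.80 ± 0.20, SE, 95% interval 0.35 to 1.25, adjusted p = 0.0322, edgeR). This was the smallest change and the largest adjusted p among the called enzymes, and the call held in 1 of the 6 fits that each left out a library, the fit without nitrate replicate 1 (adjusted p = 0.0354). In the other 5 fits the log2 fold change was 0.69 to 0.90 and the adjusted p was 0.0582 to 0.128.

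Glucose-6-phosphate isomerase, GL22245-G, on the plus strand of scaffold 19 at 113177 to 115613, stood at 80.0, 77.7 and 118 FPKM in ammonium and at 31.3, 48.2 and 33.4 FPKM in nitrate. The highest nitrate value was below the lowest ammonium value. The gene fell 2.47-fold (log2 fold change -1.31 ± 0.24, SE, 95% interval -1.86 to -0.75, adjusted p = 0.0121, edgeR), from the percentile 87.7 of all tested genes to 74.0. Without nitrate replicate 3 the adjusted p was 0.0567, and the call held without any other single library.

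Phosphoglucomutase, GL24280-G, shares glucose 6-phosphate with the isomerase and lies on the plus strand of scaffold 34 at 304525 to 306625. Its level was 51.7, 42.7 and 87.2 FPKM in ammonium and 16.6, 43.9 and 26.0 FPKM in nitrate. It was the most variable of the 5, with a coefficient of variation of 38.8% within ammonium and 48.0% within nitrate, where the medians over all tested genes were 19.3% and 20.2%. Nitrate replicate 2 lay just above ammonium replicate 2, so the groups overlapped in FPKM. With TPM as deposited or with CPM, counts scaled by library size and TMM factors, comparisons added after the values were seen, nitrate replicate 2 lay just below ammonium replicate 2 (54.0 against 54.7 TPM) and the groups did not overlap (38.0% of all tested genes did not overlap on either scale). The log2 fold change was -1.10 ± 0.37 (SE, 95% interval -1.96 to -0.24), and the adjusted p was 0.0864 (edgeR). DESeq2, which called 21.9% of all genes it tested, called this gene (adjusted p = 0.0244). When nitrate replicate 2 was left out, edgeR called it too (log2 fold change -1.53, adjusted p = 0.0429). Its interval holds the estimates of the isomerase and of glycogen synthase, so the missed threshold does not set it apart from them.

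Glycogen synthase, GL24971-G, on the plus strand of scaffold 42 at 195816 to 198922, was the least abundant of the 5. It stood at 26.3, 21.8 and 25.1 FPKM in ammonium and at 8.86, 15.5 and 11.5 FPKM in nitrate, with no overlap between the groups. The gene fell 2.06-fold (log2 fold change -1.04 ± 0.20, SE, 95% interval -1.51 to -0.58, adjusted p = 0.0137, edgeR). Its mean moved from the percentile 64.5 of all tested genes to 49.5. The adjusted p was 0.0603 when ammonium replicate 3 was left out and 0.0614 when nitrate replicate 3 was.

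By mean FPKM, a scale per length, the order was the same in both groups: UDP-N-acetylglucosamine pyrophosphorylase, UDP-glucose pyrophosphorylase, glucose-6-phosphate isomerase, phosphoglucomutase, glycogen synthase. Neighbours in this order did not overlap between libraries in either group, except the isomerase and phosphoglucomutase, which overlapped in both. Within each of the 6 libraries, however, the isomerase was above phosphoglucomutase. The distance between the pyrophosphorylases and the rest widened on nitrate.

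Ratios taken within a library do not depend on how libraries were scaled. UDP-glucose pyrophosphorylase was 2.91, 3.10 and 2.99 times the isomerase in the ammonium libraries and 16.8, 15.7 and 21.2 times in the nitrate libraries. These ratios were close to each other within ammonium, although ammonium replicate 3 stood well above the others in each gene alone. The mean ratio went from 3.00 ± 0.0935 to 17.9 ± 2.89 (SD, n = 3 and 3), a factor of 5.91 between the means of the log2 ratios.

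The ratio of UDP-glucose pyrophosphorylase to phosphoglucomutase, the enzyme just before it in the route, was 4.51, 5.64 and 4.06 in ammonium and 31.6, 17.3 and 27.2 in nitrate. The ratio to glycogen synthase, which draws on the same UDP-glucose, was 8.86, 11.1 and 14.1 in ammonium and 59.3, 48.9 and 61.2 in nitrate. In both, each nitrate library was above each ammonium library, by factors of 5.24 and 5.05. UDP-N-acetylglucosamine pyrophosphorylase rose against the isomerase by a factor of 4.28, against phosphoglucomutase by 3.79 and against glycogen synthase by 3.65, again without overlap. The ratios over phosphoglucomutase are for GL24280-G alone. Another gene with the GO identifier of phosphoglucomutase activity, GL30958-G, averaged 55.2 FPKM in ammonium and 84.3 FPKM in nitrate. Its log2 fold change was 0.58, and it was not called (adjusted p = 0.229, edgeR).

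The groups did not overlap in these 6 of the 10 pairs, each of which sets a higher gene over a lower gene, so the opposite changes already described go into them. In an exact two-sided permutation test each of the 6 gave p = 0.1, the smallest that 3 against 3 libraries can give, and 0.167 after Benjamini-Hochberg adjustment over the 10 pairs. Ratios without overlap were common for these denominators, at 79.4% of tested genes over the isomerase, 44.1% over phosphoglucomutase and 74.7% over glycogen synthase. Over UDP-glucose pyrophosphorylase and UDP-N-acetylglucosamine pyrophosphorylase the shares were 72.3% and 60.9%.

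The other 4 pairs overlapped. The ratio of UDP-glucose pyrophosphorylase to UDP-N-acetylglucosamine pyrophosphorylase was 0.426 ± 0.121 in ammonium and 0.583 ± 0.129 in nitrate (SD, n = 3 and 3, exact permutation p = 0.3). Phosphoglucomutase stood at 0.644 ± 0.0936 of the isomerase in ammonium and 0.740 ± 0.192 in nitrate (n = 3 and 3, exact permutation p = 0.5). The isomerase stood at 3.77 ± 0.851 and 3.18 ± 0.325 times glycogen synthase (n = 3 and 3, exact permutation p = 0.4). With 3 libraries a group these p-values do not show that the genes moved alike.

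**Figure D2:**
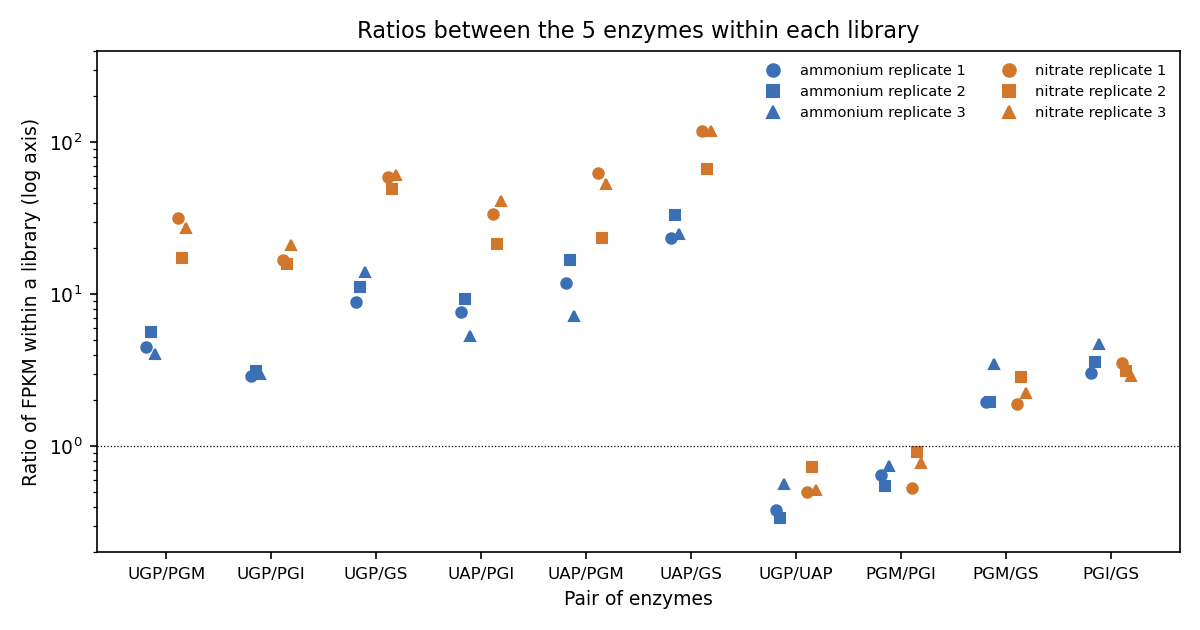
Ratio of FPKM within each library (log axis) for the 10 pairs of enzymes, with UGP for UDP-glucose pyrophosphorylase, UAP for UDP-N-acetylglucosamine pyrophosphorylase, PGI for glucose-6-phosphate isomerase, PGM for phosphoglucomutase and GS for glycogen synthase. In the 6 pairs on the left the nitrate points (orange) lie above the ammonium points (blue), and in the 4 pairs on the right they overlap.

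Within a group, some of the enzymes were highest or lowest in the same library. How many of all tested genes were so in these libraries was not counted. In ammonium, replicate 3 was the highest library for UDP-glucose pyrophosphorylase, the isomerase and phosphoglucomutase, by 0.39, 0.39 and 0.59 above the group mean of log2 FPKM. In nitrate, replicate 2 was the highest for these 3 genes. Replicate 1 was the lowest of them by FPKM, but by TPM and by TMM-scaled CPM the lowest for the isomerase was replicate 3 (40.4 TPM, against 41.9 in replicate 1). Glycogen synthase followed in nitrate, at -0.40 in replicate 1 and 0.41 in replicate 2. Its highest ammonium library was replicate 1 by FPKM and replicate 3 by TPM (32.5, against 31.2 in replicate 1) and by TMM-scaled CPM. UDP-N-acetylglucosamine pyrophosphorylase was lowest in nitrate replicate 2, the library in which the other 4 were highest. What sets these libraries apart was not tested.

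**Figure D3:**
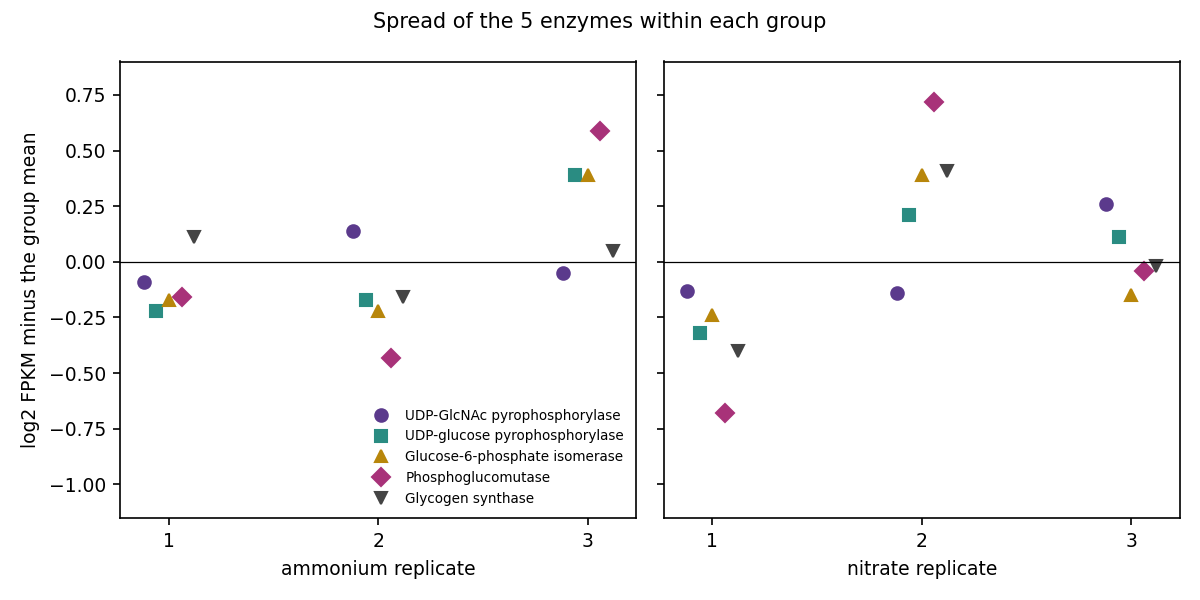
Difference of log2 FPKM from the group mean for the 5 enzymes in each library of ammonium (left) and nitrate (right). Phosphoglucomutase has the widest spread, from -0.68 to 0.72 in nitrate, and UDP-N-acetylglucosamine pyrophosphorylase stays between -0.14 and 0.26 in both groups.

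The surrounding routes were followed through 6 lists of 48 genes, matched by enzyme name and including the 5. The lists were chosen with earlier results of these data known. All 48 genes were tested. Of the other 43 genes, 3 were higher, 6 were lower and 34 did not pass, which is 20.9% called, beside 15.6% of all tested genes. The counts of each list below stand beside 7.5% of all tested genes called higher and 8.13% called lower. The median log2 fold change of these 43 was -0.17, and that of all tested genes was 0.01.

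The amino sugar route, which builds UDP-N-acetylglucosamine from fructose 6-phosphate, had 3 of 6 genes higher and none lower, with a median log2 fold change of 0.69. Without UDP-N-acetylglucosamine pyrophosphorylase these were 2 of 5 genes and a median of 0.58. Glucosamine 6-phosphate synthetase, GL18900-G, commits fructose 6-phosphate to the route. It stood at 1121, 1376 and 1138 FPKM in ammonium and at 3025, 2135 and 2670.4 FPKM in nitrate. It rose without overlap by 1.10 ± 0.23 (log2, SE, adjusted p = 0.0192, edgeR). The next enzyme, glucosamine-phosphate N-acetyltransferase, GL22204-G, adds the acetyl group, and its level was 499, 510.4 and 307 FPKM in ammonium and 971, 826 and 1171 FPKM in nitrate. It rose by 1.16 ± 0.25 (log2, SE, adjusted p = 0.021, edgeR), also without overlap.

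A mutase acts between the acetyltransferase and the pyrophosphorylase. For this step the list holds, by name alone, a phosphoglucomutase/phosphomannomutase, GL30958-G, which also carries the GO identifier of phosphoglucomutase activity. Its ammonium libraries averaged 55.2 ± 7.98 FPKM (SD, n = 3), and its nitrate libraries stood at 43.3, 109.7 and 99.7 FPKM, with both the lowest and the highest value on nitrate (adjusted p = 0.229, and 0.019 without nitrate replicate 1). The GO identifier of GL30958-G is for glucose phosphates, and whether this gene acts on N-acetylglucosamine phosphates was not tested. It counts in the total and the median of this list all the same. The enzymes that run the other way did not pass: glucosamine-6-phosphate isomerase GL25288-G had a log2 fold change of -0.74 ± 0.26 (SE, adjusted p = 0.096, edgeR) and N-acetylglucosamine-6-phosphate deacetylase GL24032-G one of 0.26 ± 0.19 (adjusted p = 0.404). Leaving out replicate 3 of either group left no called gene among the 6. In those fits the log2 fold change of GL18900-G was still at least 0.93 and that of GL22204-G at least 0.95, and their highest adjusted p-values were 0.0883 and 0.0786.

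Glycogen and trehalose genes had 4 of 11 members lower, 1 higher and 6 not called, with a median log2 fold change of -0.79. Without glycogen synthase, 3 of 10 were lower and 1 higher, with a median of -0.72. Glycogen phosphorylase, GL21375-G, releases glucose 1-phosphate from glycogen. It stood at 66.4, 65.9 and 104 FPKM in ammonium and at 22.8, 40.8 and 28.7 FPKM in nitrate. It fell without overlap by 1.38 ± 0.27 (log2, SE, adjusted p = 0.0151, edgeR), so the genes for making and for breaking down glycogen were both lower. Glycogenin, GL30965-G, which primes the chains, was lower at 6.10 ± 1.09 and 3.32 ± 0.373 FPKM (adjusted p = 0.032), and the branching enzyme GL31461-G was 15.2 ± 3.62 and 9.90 ± 5.43 FPKM (adjusted p = 0.274).

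Trehalose is the other carbohydrate store of fungal cells. Of 4 genes for trehalase, its hydrolase, the neutral trehalase GL24361-G was called, with the smallest adjusted p of the 48 genes. It stood at 63.7, 62.5 and 68.2 FPKM in ammonium and at 21.4, 16.5 and 16.2 FPKM in nitrate, and it fell by 1.84 ± 0.20 (log2, SE, adjusted p = 0.00141, edgeR). The others did not pass: the neutral trehalase GL26035-G had a log2 fold change of -0.79 (adjusted p = 0.0558), and the putative trehalases GL21601-G and GL20962-G had -0.57 (0.0671) and -1.20 (0.197), the last with a model that overlaps another gene's. Of 3 trehalose-6-phosphate synthases, GL22527-G was higher at 14.6 ± 2.58 and 27.0 ± 5.76 FPKM (adjusted p = 0.028). The more abundant GL26018-G stood at 30.7 ± 5.38 and 35.4 ± 7.09 FPKM (adjusted p = 0.614), and GL21342-G at 12.3 ± 3.55 and 10.6 ± 1.62 FPKM (adjusted p = 0.531). The call of the trehalase GL24361-G held in all 6 fits without a library, and leaving out replicate 3 of either group left it as the single call of the list. Glycogen phosphorylase reached an adjusted p of 0.0652 in these fits. Glycogenin also lost its call without replicate 2 of either group (up to 0.117), and the synthase GL22527-G kept its call without nitrate replicate 1 alone (0.0208, and up to 0.101 in the others).

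Of the 7 other genes of hexose phosphate and UDP-glucose supply, galactokinase GL17052-G, the entry of galactose, was the called one. It was lower at 18.9 ± 3.31 and 7.60 ± 2.28 FPKM (log2 fold change -1.33 ± 0.23, SE, adjusted p = 0.00995, edgeR), and the call held without any single library. The hexokinases GL20491-G and GL26783-G, which make glucose 6-phosphate, had log2 fold changes of -0.35 and -0.28 (adjusted p = 0.381 and 0.447). The UDP-glucose/GDP-mannose dehydrogenase GL18437-G, of a family that makes nucleotide-linked uronic acids, was the most abundant gene of the list after the pyrophosphorylase. It stood at 242 ± 35.0 and 286 ± 43.9 FPKM (adjusted p = 0.425).

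Genes of the pentose phosphate pathway and of the glycolytic and gluconeogenic steps next to the hexose phosphates had 2 of 7 lower and none higher. They were both dehydrogenases of the oxidative pentose phosphate pathway, which makes NADPH: glucose-6-phosphate 1-dehydrogenase GL31587-G at 42.5 ± 5.73 and 17.6 ± 4.21 FPKM (adjusted p = 0.00581, edgeR), and 6-phosphogluconate dehydrogenase GL30487-G at 191 ± 33.4 and 101 ± 17.4 FPKM (adjusted p = 0.0228). The former held without any single library, and the latter lost its call when replicate 3 of either group or ammonium replicate 2 was dropped (up to an adjusted p of 0.0959). Fructose-1,6-bisphosphatase GL24591-G, which returns carbon to fructose 6-phosphate and was the most abundant of the others, was 156 ± 8.42 and 142 ± 60.0 FPKM (adjusted p = 0.718).

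No gene was called among 6 of mannose and fucose nucleotides or among 8 nucleotide-sugar transporters, by edgeR or by DESeq2. An unadjusted p under 0.05 was seen for 2 of the former and 0 of the latter. The most abundant were GDP-mannose 4,6-dehydratase GL20928-G, at 227 ± 10.2 and 211 ± 21.6 FPKM (95% interval of the log2 fold change -0.49 to 0.25), GDP-L-fucose synthetase GL21002-G (-0.72 to 0.31), and the UDP-N-acetylglucosamine transporters GL21801-G, at 220.1 ± 6.33 and 226 ± 42.2 FPKM (-0.38 to 0.43), and GL26776-G (-0.45 to 0.64). For all 4 the interval leaves out a change of 2-fold in either direction.

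**Figure D4:**
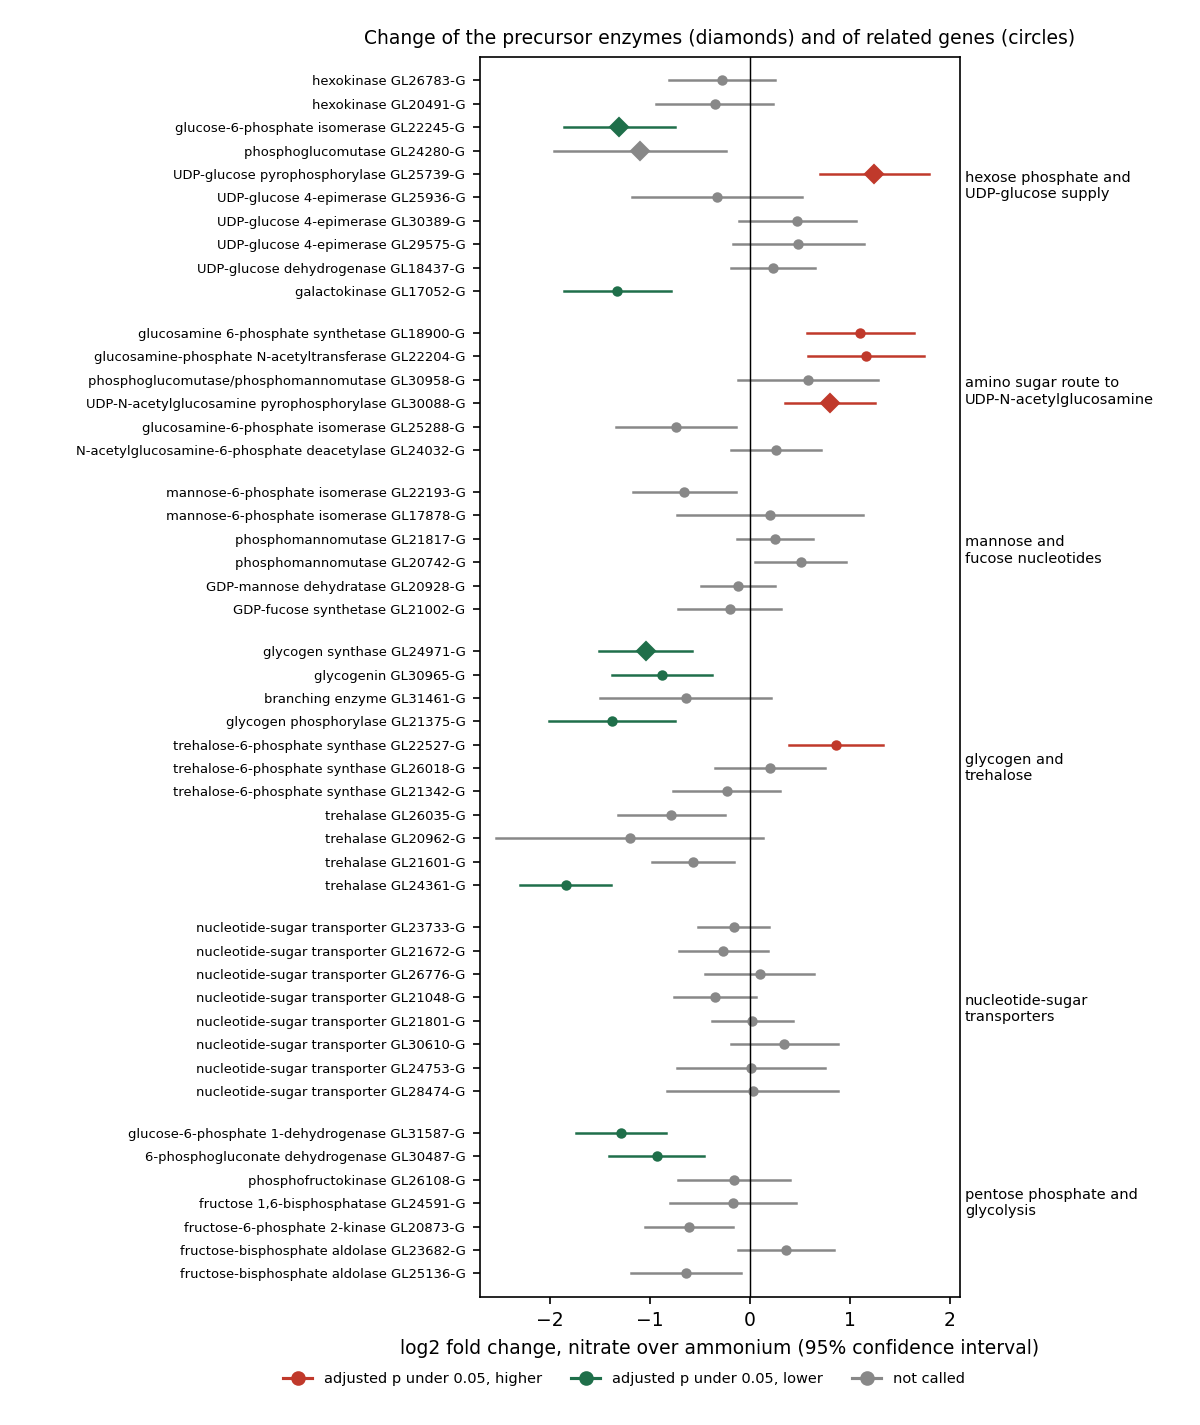
Log2 fold change (nitrate over ammonium) with its 95% confidence interval for the 48 genes of the 6 lists, with the 5 enzymes as diamonds, called genes in red (higher) or green (lower) and the others in grey. Red points stand in the upper part of the amino sugar route (0.80 to 1.16), at UDP-glucose pyrophosphorylase (1.24) and at a trehalose-6-phosphate synthase (0.86). Green points stand among glycogen and trehalose genes (-1.84 to -0.88). The other green points are glucose-6-phosphate isomerase (-1.31), galactokinase (-1.33), glucose-6-phosphate 1-dehydrogenase (-1.29) and 6-phosphogluconate dehydrogenase (-0.93).

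Genes whose pattern over the 6 libraries was nearest to each enzyme were sought among 4011 other described genes of at least 5 FPKM, by the root mean square difference of centred log2 CPM (counts scaled by library size). For the isomerase the nearest was glycogen phosphorylase GL21375-G, with a difference of 0.088. For UDP-N-acetylglucosamine pyrophosphorylase it was a syntaxin, GL24850-G, a membrane fusion protein (0.068), followed by GL22108-G, a predicted rhodopsin-family receptor (0.082), and GL30322-G, a predicted exonuclease (0.084). Phosphoglucomutase was nearest to the cytochrome P450 gene GL24524-G (0.095), pyruvate carboxylase GL21673-G (0.101) and an aldehyde dehydrogenase, GL30174-G (0.123).

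The nearest gene to UDP-glucose pyrophosphorylase was farther off than those of the other 4 enzymes. Its nearest were GL29855-G, described as a 3-phosphoinositide-dependent protein kinase (0.115), GL26007-G of the uridine, thiamine and allantoin permease family (0.189) and GL16822-G, an uncharacterized conserved protein (0.207). Glycogen synthase was nearest to the uncharacterized GL24611-G (0.085), the cullin GL30179-G (0.086) and the WD40 repeat protein GL24063-G (0.096), and the isomerase also to GL24047-G, an alpha-aminoadipate reductase type gene (0.097), and the cytochrome P450 gene GL20964-G (0.130). Among the 5 enzymes themselves, the isomerase and glycogen synthase were the closest pair (0.23), and UDP-glucose pyrophosphorylase and the isomerase were the farthest apart (1.29). The difference between the groups goes into these measures.

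The 5 enzymes lie on 5 scaffolds, and no other gene model overlaps theirs. Of the 10 nearest gene models on either side, 3 were called, where 15.6% of all tested genes were. Beside the isomerase, the copper amine oxidase GL22246-G begins 389 bases after it on the same strand and rose from 1.85 ± 0.194 to 11.0 ± 1.57 FPKM (log2 fold change 2.54 ± 0.18, SE, adjusted p = 0.000426, edgeR), opposite to the isomerase. On its other side GL18848-G, of the flavonol and cinnamoyl-CoA reductase group, was lower at 32.1 ± 3.60 and 20.0 ± 2.50 FPKM (adjusted p = 0.0365, a call that held only without nitrate replicate 1). Next to glycogen synthase, the transcription factor IIA gamma subunit GL24964-G was higher at 152 ± 4.61 and 251 ± 26.5 FPKM (adjusted p = 0.0167, and up to 0.0759 without replicate 2 or 3 of either group). The nearest genes to UDP-glucose pyrophosphorylase, GL17802-G and GL28928-G, both undescribed, were at 15.4 and 13.6 FPKM and at 18.7 and 17.4 FPKM in ammonium and nitrate, and neither was called. Beside UDP-N-acetylglucosamine pyrophosphorylase, the undescribed GL30087-G stood lower on nitrate without overlap, at 422 ± 57.0 and 244 ± 54.2 FPKM. It was not called (adjusted p = 0.0647, edgeR).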

How the data were processed

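Per the labels' protocols, mRNA of the mycelia was purified and sequenced on the Illumina platform. The genome build and annotation, the software for alignment and counting, and whether counting used strand were not given in the sources used here. The authors deposited raw counts per gene and, computed by the authors per the file headers, TPM and FPKM. Enzyme names are the table's KOG descriptions, and no genome was used here, so exons are not described and no sequence is shown.

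The titles gave the groups. Genes were tested with edgeR 4.0.16 in R 4.3.3 (quasi-likelihood, TMM factors, filterByExpr, robust, no block) on all 6 libraries, with a biological coefficient of variation of 0.248 and 4 residual degrees of freedom. The main edgeR fit and the DESeq2 fit were also run on simulated counts, and the other fits were not. How often changes of the size seen here were recovered is not reported here. Ratios used log2 FPKM. The 5 enzymes and the 6 lists were chosen with earlier results of these data known. A glycogen synthase kinase and an RNA lariat debranching enzyme matched the words of the lists and were left out by name. Named genes are the 5 enzymes, the called genes and the 2 most abundant genes of each list, the neighbours, and the 3 genes nearest in pattern (log2 CPM, prior count 2). Other list genes are named for their roles, with their values known.

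The tests were repeated with RLE factors, with no filter, with a minimum of 50 counts in 3 libraries, with DESeq2 1.42.0, with limma 3.58.1 on log2(FPKM + 1) and log2(FPKM + 0.1) of genes of at least 1 FPKM in 3 libraries, with the replicate number as a block, and without each library. TPM were used for ratios and overlap alone.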

Additional observations from a re-analysis of the deposited data

How the results depend on the processing

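Under the 13 other settings the 5 enzymes kept their directions, and with RLE factors, either other filter or limma the same 4 were called. Of all tested genes, 15.6% were called with RLE factors, 13.6% with no filter and 18.6% with a minimum of 50 counts in 3 libraries. With limma on log2(FPKM + 1) and log2(FPKM + 0.1) the shares were 14.2% and 13.8%. DESeq2 also called phosphoglucomutase (-1.10 on the log2 scale). Leaving out single libraries, log2 fold changes were 1.10 to 1.46 for UDP-glucose pyrophosphorylase, 0.69 to 0.90 for UDP-N-acetylglucosamine pyrophosphorylase, -1.52 to -1.09 for the isomerase, -1.53 to -0.74 for phosphoglucomutase and -1.27 to -0.90 for glycogen synthase. Between 0 and 4 of the 5 were then called, and 655 to 1946 genes in all, of 1874 with every library. Called list genes were 1 to 4 in hexose phosphate and UDP-glucose supply, 0 to 4 in the amino sugar route, 1 to 6 in glycogen and trehalose, and 1 to 2 among pentose phosphate and glycolytic genes. Each of these fits lacked a single library, and the calls ran from 655 without ammonium replicate 3 to 1946 without ammonium replicate 1. Why they differed was not tested. The ratio of phosphoglucomutase to glycogen synthase changed by -0.05 (log2), and by -0.21 to 0.22 without single libraries, turning to 0.22 without ammonium replicate 3 and to 0.09 without nitrate replicate 1.

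With the replicate number as a block 225 genes were called (1.88%), and 0 of the 5 enzymes. The log2 fold changes were then 1.26 for UDP-glucose pyrophosphorylase, -1.30 for the isomerase, 0.80 for UDP-N-acetylglucosamine pyrophosphorylase and -1.07 for glycogen synthase. Of the lists, 1 gene of glycogen and trehalose and 0 of the others were called. Libraries of the same number did not deviate together over genes (correlations of -0.66, -0.349 and -0.458), and none was closest to its own number. Deviations from a group mean are tied to each other, so these values cannot show whether libraries of a number were handled together. The labels do not say it either, and it was not tested.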

Other observations

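Glucosamine-phosphate N-acetyltransferase, GL22204-G, a called gene of the amino sugar route, lies on scaffold 19 at 592743 to 593418 on the minus strand. The gene model before it, GL22281-G, ends 390 bases away on the plus strand. GL22281-G is described as a sulfite oxidase, molybdopterin-binding component, and carries the GO identifier for nitrate reductase among others. Its level was 5.35, 4.64 and 4.80 FPKM in the ammonium libraries and 48.0, 54.8 and 51.1 FPKM in the nitrate libraries, a log2 fold change of 3.37 ± 0.15 (SE, adjusted p = 9.45e-05, edgeR). The models face each other and do not overlap, and whether counting used strand is not given in the sources used here. The acetyltransferase was the more abundant of the pair in all 6 libraries, at 307 to 1171 FPKM. This neighbour was looked up after the values were seen.

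By KEGG pathway, looked up in the same way, 4 of the 5 enzymes belong to starch and sucrose metabolism and 4 to amino sugar and nucleotide sugar metabolism. Of 31 tested genes in the former, 2 were higher and 5 lower, and of 31 in the latter, 4 were higher and 2 lower (edgeR, adjusted p under 0.05). These counts include the enzymes themselves, and 15.6% of all tested genes were called, 7.5% higher and 8.13% lower. The median log2 fold changes were -0.14 and -0.01. Glycolysis and gluconeogenesis, with 2 of the enzymes, had 4 higher and 4 lower of 32 tested genes (median log2 fold change -0.17). Galactose metabolism, also with 2 of the enzymes, had 2 higher and 1 lower of 17 (-0.18). The pathways share genes.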
